A study of Mus musculus with 4 samples.

Results

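The mitotic genes described here were 11 probe sets of 10 genes, out of 45037 probe sets on mouse expression arrays of the type called Mouse 430 2.0. They were given by a list of probe set numbers, drawn up with earlier results of these data known: Mki67 (1426817_AT), Top2a (1454694_A_AT), Ccna2 (1417910_AT and 1417911_AT), Ccnb1 (1448205_AT), Ccnb2 (1450920_AT), Cdk1 (1448314_AT), Plk1 (1448191_AT), Aurka (1424511_AT), Bub1b (1416961_AT) and Cdc20 (1416664_AT). That list is the only link between probe set and gene used here. The study profiled C57BL/6 mouse fibroblasts with the SIN1 gene ablated (SIN1 KO, 2 arrays) and wild type fibroblasts (2 arrays). Its aim was to find which transcripts differ when SIN1 is missing. Each genotype has an array numbered 1 and an array numbered 2. SIN1 is the product of Mapkap1 and a subunit of mTOR complex 2, the kinase complex that phosphorylates AKT. Both genotypes were grown in DMEM, and the labels call the SIN1 KO cells altered in metabolism. The labels name no further allele or agent, and whether 2 arrays of 1 genotype stand for separate cultures, clones or embryos is not stated. A p-value here thus reflects the spread among 4 arrays, possibly a technical one. The level of Mapkap1 and the fibroblast markers were not analysed here, so neither the genotype nor the cell type was checked against the data.

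A dividing cell makes these transcripts late in its cycle and destroys many of their products as it leaves mitosis. Cyclin A2 and the B cyclins switch on the kinase CDK1, PLK1 and Aurora A build the spindle, and the checkpoint protein BUBR1 holds back CDC20 until every chromosome is attached. The promoters of such genes often carry CCAAT boxes, bound by the factor NF-Y, and a cell cycle homology region (CHR), at which the DREAM and MuvB complexes act. Cultures with more dividing cells as a rule hold more of these transcripts, and with whole-culture RNA a smaller share of dividing cells and less RNA per cell cannot be told apart.

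The promoters of 4 members are shown because these genes stand for the 2 patterns seen below. Top2a and Ccnb2 had the largest drops on SIN1 KO 2 against wild type 2, whereas Cdk1 and Cdc20 had both SIN1 KO arrays above both wild type ones. Each sequence is the 250 bases before the start that the RefSeq promoter table (GRCm38.p6) gives for the gene, on the minus strand and read 5′ to 3′ toward the gene. Capitals mark CCAAT (or ATTGG, its reverse complement) and the CHR forms TTTGAA (or TTCAAA, its reverse complement) and TTCGAA. No base belonged to 2 matches. The last 10 bases of the Top2a sequence lie within the gene's full extent in RefSeq, and none of the other 3 sequences overlaps its gene.
Top2a, chr11:99024190-99024439: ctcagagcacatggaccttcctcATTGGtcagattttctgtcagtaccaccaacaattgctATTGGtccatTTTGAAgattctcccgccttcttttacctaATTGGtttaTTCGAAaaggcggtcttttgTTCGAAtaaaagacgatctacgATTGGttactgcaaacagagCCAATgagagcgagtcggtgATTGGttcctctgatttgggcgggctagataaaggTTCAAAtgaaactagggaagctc
Ccnb2, chr9:70421555-70421804: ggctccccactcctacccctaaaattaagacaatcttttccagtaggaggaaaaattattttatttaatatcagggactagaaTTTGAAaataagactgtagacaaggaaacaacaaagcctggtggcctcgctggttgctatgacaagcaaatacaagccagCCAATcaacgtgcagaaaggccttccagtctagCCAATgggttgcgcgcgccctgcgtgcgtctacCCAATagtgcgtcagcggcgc
Cdk1, chr10:69352913-69353162: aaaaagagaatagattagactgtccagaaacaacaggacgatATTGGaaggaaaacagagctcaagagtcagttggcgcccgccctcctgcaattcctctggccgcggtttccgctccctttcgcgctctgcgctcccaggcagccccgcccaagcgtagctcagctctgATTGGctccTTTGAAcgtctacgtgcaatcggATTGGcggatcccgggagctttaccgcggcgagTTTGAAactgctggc
Cdc20, chr4:118437344-118437593: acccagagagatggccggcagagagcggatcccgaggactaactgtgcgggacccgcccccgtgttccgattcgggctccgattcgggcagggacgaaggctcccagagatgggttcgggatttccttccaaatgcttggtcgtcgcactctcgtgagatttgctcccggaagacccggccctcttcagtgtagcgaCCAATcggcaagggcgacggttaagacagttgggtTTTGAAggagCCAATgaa

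The RefSeq promoter table held 9 of the 10 genes, and Ccna2 was not matched. The windows of Bub1b (9 bases), Mki67 (71 bases) and Aurka (all 250) also lie partly or wholly within the full extent of their genes. All 9 windows held a CCAAT box on 1 strand or the other, against 33.8% of the 32851 windows of this length in the table, and 7 of the 9 held at least 2, against 10.1%. A CHR form (TTTGAA or TTCGAA) was found in 6 of the 9, against 17.1% of all windows. Top2a had 6 CCAAT boxes and 4 CHR matches, Cdk1 had 3 and 2, Ccnb2 had 3 and 1, and Cdc20 had 2 and 1. These 4 genes, picked by their expression, all held both motifs, but so did Mki67 and Bub1b, which were not picked. The windows of Aurka, Ccnb1 and Plk1 held no CHR form. Whether the motifs bear on the patterns of expression was not tested. A match is a run of letters and not a measured binding site.

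All 11 probe sets were well above background on all 4 arrays. Their values ran between 6.54 and 11.74 on the log2 scale, whereas the highest of 27 Bacillus subtilis control probe sets, taken as background, was 3.75 and 4.27 on the SIN1 KO arrays and 4.05 and 3.91 on the wild type arrays. The array medians lay between 4.23 and 4.32. The 18 hybridisation control probe sets averaged 11.41 and 11.54 on the SIN1 KO arrays against 11.85 and 11.73 on the wild type arrays, so scaling to them would raise every SIN1 KO value relative to wild type. Array pairs correlated with r between 0.904 and 0.971 across probe sets. RefSeq also lists pseudogenes named after 2 members (Ccnb1-ps and Ccnb2-ps), and whether the probes of those members also bind such copies was not tested.

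Set against wild type, SIN1 KO cells gave mean log2 differences of either sign in these genes, between -1.05 for Top2a and 0.56 for Cdc20, and none passed the test. On average 5 of the 11 probe sets lay higher in SIN1 KO, against 53.9% of all probe sets, and 6 lay lower, while 0 passed limma's test with Benjamini-Hochberg adjustment over all 45037 probe sets, where 0% passed. At an unadjusted p of 0.05, 0 of the 11 passed limma's test, against 5.57% of all probe sets. The members' median log2 difference was -0.0085, beside 0.037 over all probe sets. Scaled to the hybridisation controls the median of all probe sets became 0.36 and that of the members 0.31, with 9 higher and 2 lower, so relative to all probe sets the members stayed at -0.045. With 2 arrays a group the standard errors of the members ran between 0.26 and 0.99, and differences of the size seen were not detectable.

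**Figure D1:**
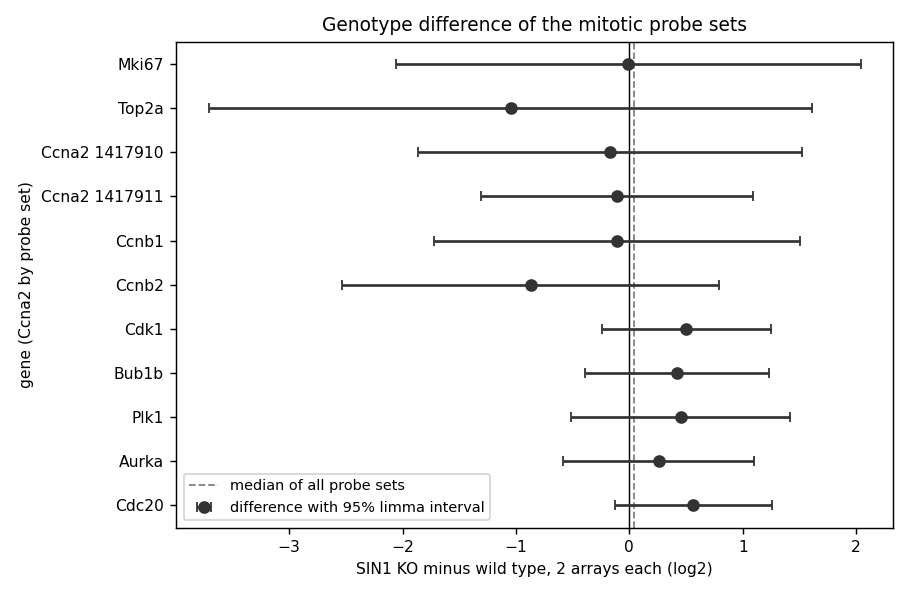
The log2 difference, SIN1 KO minus wild type with 2 arrays each, is drawn for each mitotic probe set with its 95% limma interval, beside the median of all probe sets (dashed, 0.037). All 11 intervals include 0, and the widest belongs to Top2a (-3.71 to 1.61).

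Mki67, which encodes the Ki-67 protein that coats mitotic chromosomes, measured 11.34 and 10.27 on SIN1 KO 1 and 2 against 9.88 and 11.74 on wild type 1 and 2. The wild type arrays thus held both the lowest and the highest value, with the SIN1 KO arrays between them. The means were 10.80 ± 0.75 in SIN1 KO and 10.81 ± 1.31 in wild type (SD, n = 2 each), a log2 difference of -0.0085 (SE 0.76, limma adjusted p = 1), which was 0.024 after median centring and 0.31 when scaled to the hybridisation controls. The 95% interval of that difference, -2.06 to 2.04, allows about a 4-fold change either way.

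Top2a, the topoisomerase that untangles sister chromosomes, varied most among the members. It measured 9.53 and 7.89 on the SIN1 KO arrays against 8.59 and 10.92 on the wild type arrays. SIN1 KO 2 was lowest and wild type 2 highest, 8.17-fold apart, and the groups overlapped. Only 2.71% of all probe sets spanned as wide a range over the 4 arrays. The log2 difference of -1.05 (SE 0.99, limma adjusted p = 0.835) was 0.12 without wild type 2 and -0.23 without SIN1 KO 2.

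The cyclins followed the same order of arrays as Top2a or nearly so. Ccna2, the cyclin that acts in DNA synthesis and on entry into mitosis, had 2 probe sets. Probe set 1417910_AT measured 9.15 and 8.24 on the SIN1 KO arrays against 8.13 and 9.60 on the wild type arrays. Probe set 1417911_AT measured 10.43 and 9.65 on the SIN1 KO arrays against 9.75 and 10.55 on the wild type arrays. Both put wild type 2 highest and SIN1 KO 1 next, and both gave overlapping groups. Their log2 differences of -0.17 (SE 0.63) and -0.11 (SE 0.45) were 0.15 and 0.21 when scaled to the hybridisation controls.

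Ccnb1, the main mitotic cyclin, measured 8.53 and 7.16 on the SIN1 KO arrays against 7.51 and 8.39 on the wild type arrays. Here the SIN1 KO arrays held both extremes. The log2 difference between its means of -0.11 (SE 0.60) was 0.21 when scaled to the hybridisation controls. Ccnb2, the second B cyclin, measured 8.08 and 6.54 on the SIN1 KO arrays against 7.83 and 8.54 on the wild type arrays. SIN1 KO 2 stood apart at the low end, while SIN1 KO 1 lay between the wild type arrays. The means of Ccnb2 were 7.31 ± 1.08 in SIN1 KO and 8.18 ± 0.50 in wild type (SD, n = 2 each), a log2 difference of -0.87 (SE 0.62, limma adjusted p = 0.82) that was -0.10 without SIN1 KO 2.

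The kinases had higher means in SIN1 KO and mostly varied less than the cyclins. Plk1 was an exception, with a log2 range over the arrays of 0.997 against 0.898 for Ccna2 probe set 1417911_AT. Cdk1, the kinase that the cyclins activate, measured 10.06 and 10.43 on the SIN1 KO arrays against 9.82 and 9.66 on the wild type arrays. Both SIN1 KO arrays were above both wild type arrays, by a log2 difference of 0.50 between the means (SE 0.28, 95% interval -0.24 to 1.25, limma adjusted p = 0.82). Plk1, which drives centrosome maturation and mitotic entry, measured 9.38 and 10.02 on the SIN1 KO arrays against 9.48 and 9.02 on the wild type arrays. SIN1 KO 2 was high and wild type 2 low, with the number 1 arrays close together between them. Aurka, the Aurora A kinase of the spindle poles, measured 9.80 and 9.76 on the SIN1 KO arrays against 9.81 and 9.23 on the wild type arrays. Wild type 2 alone was lower, and the other 3 arrays lay within 0.06 of each other. Plk1 differed by 0.45 (SE 0.36), which was 0.13 without SIN1 KO 2, 0.22 without wild type 2 and 0.77 without SIN1 KO 1. Aurka differed by 0.26 (SE 0.31), which was -0.036 without wild type 2 and 0.55 without wild type 1. Scaled to the hybridisation controls, the differences were 0.82 for Cdk1, 0.77 for Plk1 and 0.58 for Aurka.

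The checkpoint gene Bub1b and its counterpart Cdc20 were higher throughout in SIN1 KO, with no overlap between the genotypes. Bub1b, which encodes BUBR1, measured 8.42 and 8.18 on the SIN1 KO arrays against 7.64 and 8.12 on the wild type arrays. The gap between the genotypes was only 0.06 on the log2 scale, less than the spread within either, and the difference between the means of 0.42 was 0.18 without wild type 1 and 0.66 without wild type 2. Cdc20, the activator of the anaphase-promoting complex, measured 9.71 and 9.98 on the SIN1 KO arrays against 9.27 and 9.30 on the wild type arrays. It had the widest gap of the members, 0.42, and means of 9.85 ± 0.19 in SIN1 KO and 9.28 ± 0.02 in wild type (SD, n = 2 each). The log2 difference of 0.56 (SE 0.26, 95% interval -0.13 to 1.26) did not pass limma's test (adjusted p = 0.82). It was larger than the difference between the arrays of either genotype (0.27 in SIN1 KO and 0.025 in wild type).

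Cdk1, Bub1b and Cdc20 were thus the 3 of 11 probe sets with both SIN1 KO arrays above both wild type arrays, a pattern found in 20.4% of all probe sets. The reverse was found for 0 of the 11, against 14.9% of all. Scaled to the hybridisation controls, which raises every SIN1 KO value relative to wild type, 5 of the 11 had both SIN1 KO arrays above. The share of all probe sets was not counted with that scaling, so the 5 cannot be set against 20.4%.

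**Figure D2:**
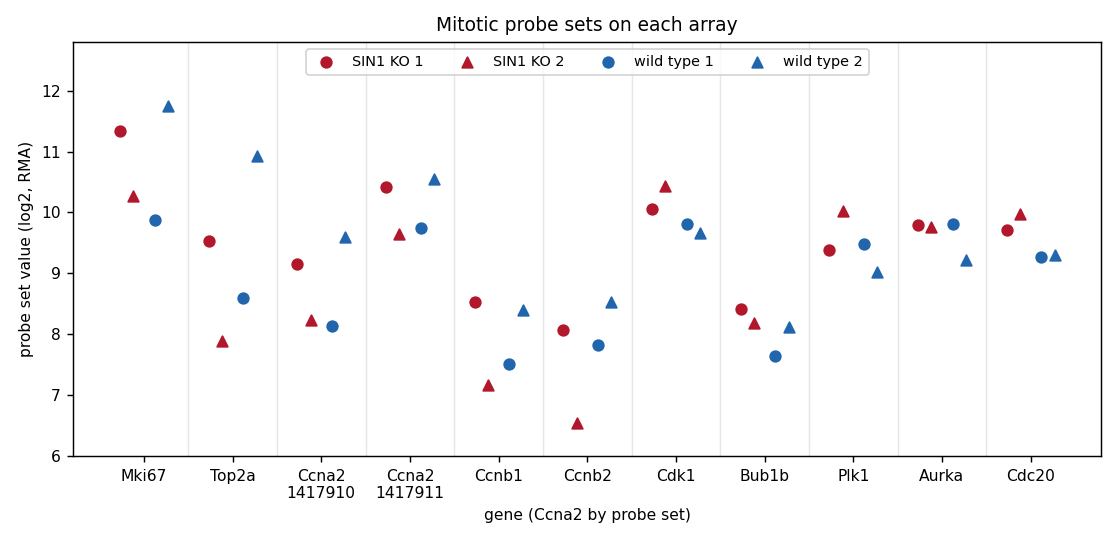
Log2 values of the mitotic probe sets are shown on each of the 4 arrays, SIN1 KO in red and wild type in blue, with circles for number 1 and triangles for number 2. In the 6 probe sets of Mki67, Top2a and the cyclins wild type 2 and SIN1 KO 1 are the 2 upper points, and Cdk1, Bub1b and Cdc20 have both SIN1 KO points above both wild type points.

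Arrays of the same number were then compared, with 1 array a genotype and no test. Between the number 1 arrays, 9 of the 11 probe sets were higher on SIN1 KO 1 than on wild type 1, against 47.7% of all probe sets, with a median log2 difference of 0.68 beside -0.015 over all. Mki67 (1.45), Ccna2 probe set 1417910_AT (1.02) and Ccnb1 (1.02) were at least 2-fold higher, 3 of 11 against 3.95% of all probe sets. The Ccna2 and Ccnb1 values were barely past that mark and Top2a, at 0.93, barely short of it. The count of members was 1 after cyclic loess and 6 when scaled to the hybridisation controls, which raises every SIN1 KO value relative to wild type. The share of all probe sets was not counted with those scalings, so neither count can be set against 3.95%. Plk1 (-0.10) and Aurka (-0.015) were almost level.

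Between the number 2 arrays, 6 of the 11 were lower on SIN1 KO 2 than on wild type 2, against 42% of all, with a median of -0.90 beside 0.13 over all. The 6 were the same probe sets of Mki67, Top2a, Ccna2, Ccnb1 and Ccnb2 that had been higher on SIN1 KO 1, and this reversal was found in 21.8% of all probe sets. Of these, 5 were at least 2-fold lower, against 16.9% of all. Top2a was 8.17-fold lower on SIN1 KO 2, Ccnb2 3.98-fold, Mki67 2.77-fold, Ccna2 probe set 1417910_AT 2.57-fold and Ccnb1 2.35-fold. The other 5 probe sets went the other way: Plk1 was just short of 2-fold higher on SIN1 KO 2 (log2 difference 0.997), Cdk1 was 1.70-fold higher, Cdc20 1.61-fold, Aurka 1.45-fold and Bub1b 1.05-fold. A log2 change of that size was common between the number 2 arrays, where the SD over all probe sets was 1.15, against 0.63 between the number 1 arrays.

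**Figure D3:**
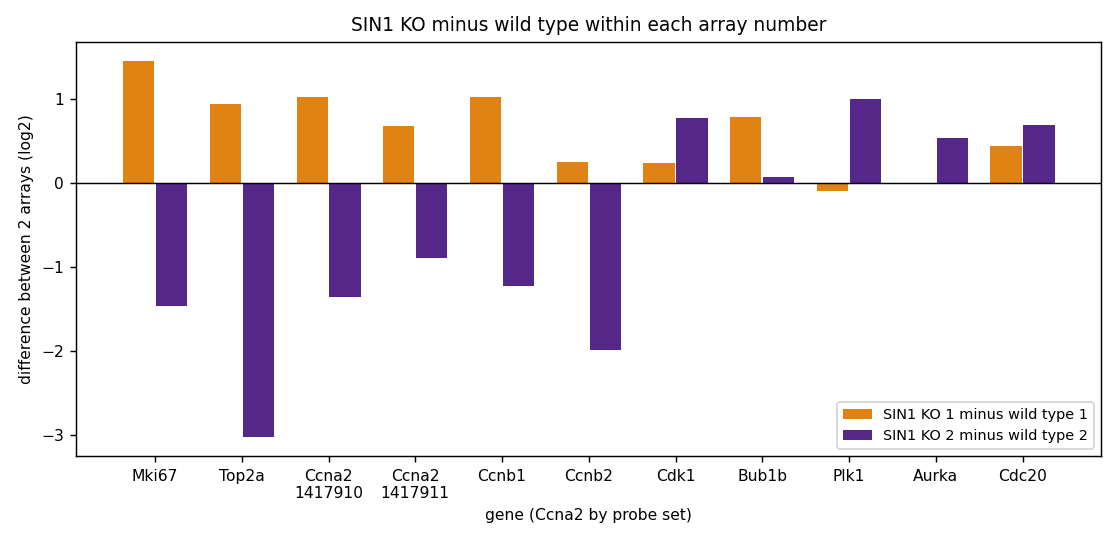
Bars give the log2 difference between 1 SIN1 KO and 1 wild type array of the same number for each mitotic probe set. Mki67, Top2a and the cyclins are above 0 for number 1 and below 0 for number 2 (Top2a 0.93 and -3.03), while Cdk1, Bub1b and Cdc20 are above 0 for both.

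Cdk1, Bub1b and Cdc20 were higher in SIN1 KO for both numbers, as were 25.6% of all probe sets. Across the 11 probe sets the number 1 and number 2 differences correlated with r = -0.63, against 0.01 over all 45037 probe sets. The 11 points share the same 4 arrays and 2 of them are of 1 gene. The differences within a genotype mirrored each other. They were taken from the same 4 arrays as the numbered pairs, so they describe the same pattern again and add no support to it. Array 2 minus array 1 had a median over the members of -0.77 in SIN1 KO and 0.71 in wild type, and these differences correlated with r = -0.82 across the 11, against -0.42 across all probe sets. At least 2-fold lower on SIN1 KO 2 than on SIN1 KO 1 were 4 of the 11, against 8.59% of all probe sets, and at least 2-fold higher on wild type 2 than on wild type 1 were 3, against 10%. For 9 of the 11 probe sets, all but those of Cdk1 and Cdc20, the difference between the arrays of at least 1 genotype exceeded that between the genotype means. The share of all probe sets for which this held was not counted, so it is not shown to be particular to the members. Over the 4 arrays, 5 of the 11 spanned at least 2-fold, against 39% of all probe sets.

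Cyclins and kinases were also set against each other within an array, which no scaling by a constant can alter. This contrast was chosen after the values were seen, so it describes the pattern and adds no support to it. The mean of Ccna2, Ccnb1 and Ccnb2 minus the mean of Cdk1, Plk1 and Aurka was -0.95 and -2.52 on the SIN1 KO arrays against -1.61 and -0.30 on the wild type arrays. The groups overlapped, with SIN1 KO 2 lowest and wild type 2 highest. The log2 difference between genotypes of -0.78 was -1.56 without SIN1 KO 1, 0.0087 without SIN1 KO 2, -1.43 without wild type 1 and -0.12 without wild type 2. The cyclins alone averaged 8.80 and 7.55 on the SIN1 KO arrays against 8.09 and 9.00 on the wild type arrays. The kinases averaged 9.75 and 10.07 on the SIN1 KO arrays against 9.70 and 9.30 on the wild type arrays. On SIN1 KO 2 the cyclin mean was lowest and the kinase mean highest, and on wild type 2 the reverse held. Single members departed from this: Ccna2 probe set 1417910_AT was lowest on wild type 1, Ccnb1 was highest on SIN1 KO 1 and Aurka was highest on wild type 1.

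**Figure D4:**
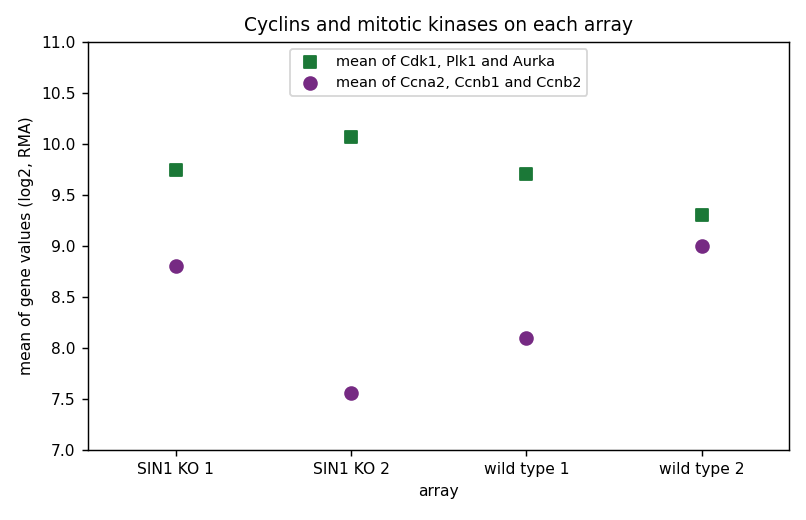
The mean log2 value of 3 cyclin genes (circles, Ccna2 as the mean of its 2 probe sets) and of 3 kinase genes (squares) is shown on each array. The distance between them is widest on SIN1 KO 2 (7.55 and 10.07) and narrowest on wild type 2 (9.00 and 9.30).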

How the data were processed

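Each of the 4 arrays, labelled from total RNA with biotin, has 1 column of log2 values that the authors produced by RMA, per the submitters' processing notes. Version and settings were not given in the sources used here. The log2 scale was taken from the range of the deposited values, 0.80 to 14.17. Groups and array numbers came from the sample titles. Genotypes were compared with limma 3.58.1 in R 4.3.3 (lmFit, eBayes) over 45037 probe sets, 64 controls left out, with Benjamini-Hochberg adjustment at 0.05, residual degrees of freedom of 2 and prior degrees of freedom of 2.38. The number of arrays limits the precision (median standard error 0.33). The fit was checked on simulated data. The members and lists were chosen with earlier results of these data known. All members are named. The other mitotic genes, the cell type markers and the probe sets closest in pattern could not be named without a table of genes and were not analysed here. Figures used matplotlib 3.10.9.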

Additional observations from a re-analysis of the deposited data

How the results depend on the processing

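With the other scalings, priors and pairings and with each array left out, 0 of the 11 mitotic probe sets passed limma's adjusted test; the lowest adjusted p among 132 such values was 0.317. The filter at the median level, which kept all 11, gave 5 probe sets of the whole table higher and 0 lower, against 0 and 0. At the unadjusted threshold, counts are given only for settings that kept all 4 arrays. Among those, 2 mitotic probe sets passed when scaled to the hybridisation controls and 1 with the crossed replicate block. The share of all probe sets passing was not counted in these 2 settings. Scaling to the hybridisation controls also raises every SIN1 KO value relative to wild type. The replicate number as a block gave 0 calls and the same median difference of -0.0085. The study's design text names no pairing, so the numbers were not treated as pairs in the main fit. Deviations of same-numbered arrays ran in opposite directions (r = -0.415). The crossed pairing, added after seeing the data, also gave 0 calls.

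The count with both SIN1 KO arrays above both wild type arrays was 5 when scaled to the hybridisation controls and 4 to 5 with an array left out, and the count below was 0 to 5, since fewer arrays loosen the rule. The share of all probe sets with either order was not counted in these settings. The sign of 15 of the 132 values turned. Median centring gave Mki67 0.024, and scaling to the hybridisation controls gave Mki67 0.31, Ccna2 0.15 and 0.21 and Ccnb1 0.21, since it shifts all probe sets alike. Leaving out 1 array gave -0.94 to 0.92 for Mki67, -2.21 to 0.12 for Top2a, -0.90 to 0.56 and -0.51 to 0.29 for Ccna2, -0.79 to 0.58 for Ccnb1 and -0.036 to 0.55 for Aurka, and -0.51 to 0.33 for the median of the members, which was 0.68 for the number 1 arrays alone and -0.90 for the number 2 arrays alone. With an array left out, Ccnb2 (-1.64 to -0.10), Cdk1 (0.32 to 0.69), Bub1b (0.18 to 0.66), Plk1 (0.13 to 0.77) and Cdc20 (0.43 to 0.70) kept their sign, as they did under the other scalings, where the hybridisation controls moved Bub1b to 0.74, Cdk1 to 0.82, Plk1 to 0.77, Cdc20 to 0.89 and Ccnb2 to -0.55. Ccnb2 (0.25) and Plk1 (-0.10) had the other sign on the number 1 arrays alone. Where 1 array of a group was left, its spread was taken from the other group. Slide and scan date were not given in the files used here and were not tested as blocks.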
